A study of Mus musculus with 12 samples.

Results

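The genes described here encode the proteasome, its assembly chaperones, its activators and its inhibitor, measured over 4 stages of neutrophil development in mouse bone marrow. They were taken by name: every array row with exactly 1 gene symbol made of Psm, a letter from a to g and a digit was kept, and where a gene had several rows the brightest over all arrays was used. This gave 50 of the 19937 genes tested. Of these, 48 are parts of the proteasome or act directly on it, and Psmc3ip and Psme3ip1 match the pattern only because they are named for a partner of a subunit, so they are counted apart.

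The study set messenger RNA against miRNA levels during granulopoiesis, with Affymetrix Mouse Gene 1.0 ST arrays for the messenger RNA. The donors were C57BL/6 mice, for which the sources used here state no treatment and give no age. Marrow of leg bones and spine was sorted by flow cytometry, and total RNA of each of 4 sorted populations was put on 3 arrays, 12 in all. The LSK gate took marrow cells that are Sca1+ and cKit+ and negative for B220, Ter119, CD3, Gr-1 and CD11b, a fraction that contains stem cells and early progenitors. The promyelocyte, myelocyte and granulocyte gates took successive stages by Gr-1, cKit, CD34 and CD16/32 among cells negative for Sca1, B220 and CD3, among other antigens, so each population is a sorted fraction and not a pure cell type.

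The proteasome degrades proteins that carry ubiquitin. Its core particle is a barrel of alpha and beta subunits, of which only the beta subunits Psmb5, Psmb6 and Psmb7 cut peptide bonds, and its regulatory particle, built of a base of ATPases and a lid, recognises, unfolds and feeds in the substrate. In blood cells and after interferon gamma, Psmb8, Psmb9 and Psmb10 can take the places of the 3 constitutive catalytic subunits to form the immunoproteasome, which makes peptides for MHC class I. Chaperones build the particles, and activators of the Psme group can cap the core in place of the regulatory particle.

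All values are deposited log2 values. A gene was called at a Benjamini-Hochberg adjusted p under 0.05 over all 19937 genes together with a fold of at least 2, by limma. The labels name the arrays of a population biological replicates and do not say whether different mice were used, so the p-values reflect the spread among these arrays, part of which can be technical. In sorted bulk samples, fewer cells of a type and less RNA per cell cannot be told apart. Rows differ in how strongly they bind, so levels are compared between stages and never between genes.

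The population labels were checked against marker lists. Highest means lay in LSK cells for 5 of 5 progenitor genes, in promyelocytes for 5 of 5 primary granule genes, in myelocytes for 5 of 5 secondary granule genes and in granulocytes for 4 of 4 mature granulocyte genes. Markers of other cells also moved with stage. In promyelocytes against LSK cells, 5 of 6 eosinophil, 5 of 6 basophil and mast cell and 6 of 6 monocyte and macrophage genes were called higher, against 1.61% of all genes. In granulocytes against promyelocytes 4, 5 and 4 of these 6 were called lower, against 16.3% of all genes. In each of these 3 lists 1 gene was called higher, against 10.1% of all genes. The mean over the eosinophil list ranged from 5.72 to 8.83 among the promyelocyte arrays, and that over the basophil and mast cell list from 8.62 to 10.93 among the myelocyte arrays. The B cell list averaged 5.08 to 6.02 in LSK cells, 4.29 to 4.61 in promyelocytes, 4.33 to 4.53 in myelocytes and 4.54 to 4.64 in granulocytes. Against LSK cells, 3 of its 7 genes were called lower in promyelocytes and 4 in granulocytes, as were 3 and 3 of 8 dendritic cell, 1 and 1 of 4 erythroid and 1 and 3 of 5 megakaryocyte genes. Of all genes 2.75% and 16.5% were called lower in these 2 comparisons. In these 4 lists only 1 dendritic cell gene, Itgax, was called higher, in granulocytes. The mean over the T and NK cell list stayed between 3.65 and 4.53 on every array, while single genes moved. Of its 7 genes, 1 was called lower in promyelocytes and 1 in granulocytes against LSK cells. In granulocytes against promyelocytes 1 was called higher and 0 lower. Il7r averaged 5.81 in LSK cells, 3.72 in promyelocytes, 5.69 in myelocytes and 4.32 in granulocytes, and Cd3g averaged 3.91, 3.26, 3.59 and 4.74. The part of these cells in the proteasome values was not tested.

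The arrays numbered 3 stood apart for these genes in 3 of the 4 populations. LSK array 3 was the lowest of its population for 38 of the 48 members (79.2%, against 33.9% of all genes). Promyelocyte array 3 was the lowest for 36 (75%, against 37.9%, or 50.7% of the genes whose mean exceeded dim signal). Dim signal is the level under which 95% of olfactory and vomeronasal receptor genes lay. Granulocyte array 3 was the lowest for 34 (70.8%, against 33.9% of all genes). Myelocyte array 3 was the lowest for 9 members (18.8%, against 32.8% of all genes). Mpo, a primary granule enzyme, was also low on the same arrays, at 10.47 on LSK array 3 beside 11.62 and 11.99, at 12.22 on promyelocyte array 3 beside 12.74 and 12.84, and at 5.99 on granulocyte array 3 beside 7.27 and 7.50. Their part in the proteasome values was not tested beyond leaving them out. Counts without the 4 arrays numbered 3, an alternative chosen after seeing the data, are given beside the main ones.

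Most proteasome genes were highest in promyelocytes and lowest in granulocytes. The lowest of the 4 stage means lay in granulocytes for 37 of the 48 members. This held for 5016 of all 19937 genes and 4640 of the 12963 genes with a mean above dim signal. The highest lay in promyelocytes for 41 members, against 23.1% of all genes and 3473 of those 12963. The other 7 were Psme1 and Psmd8, highest in LSK cells (2 members, against 18.1% of all genes), Psma2, Psmd14 and Psmd10, highest in myelocytes (3, against 12.8%), and Psmb11 and Psme4, highest in granulocytes (2, against 46%). By the moderated F test, 41 of the 48 differed among the stages, against 54% of all genes and 9325 of the 12963 genes with a mean above dim signal. Without the arrays numbered 3, 41 members did so. Averaged over the 48 members, the array means ran from 8.00 to 8.39 in LSK cells, from 8.30 to 8.69 in promyelocytes, from 7.89 to 7.98 in myelocytes and from 7.19 to 7.54 in granulocytes.

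**Figure D1:**
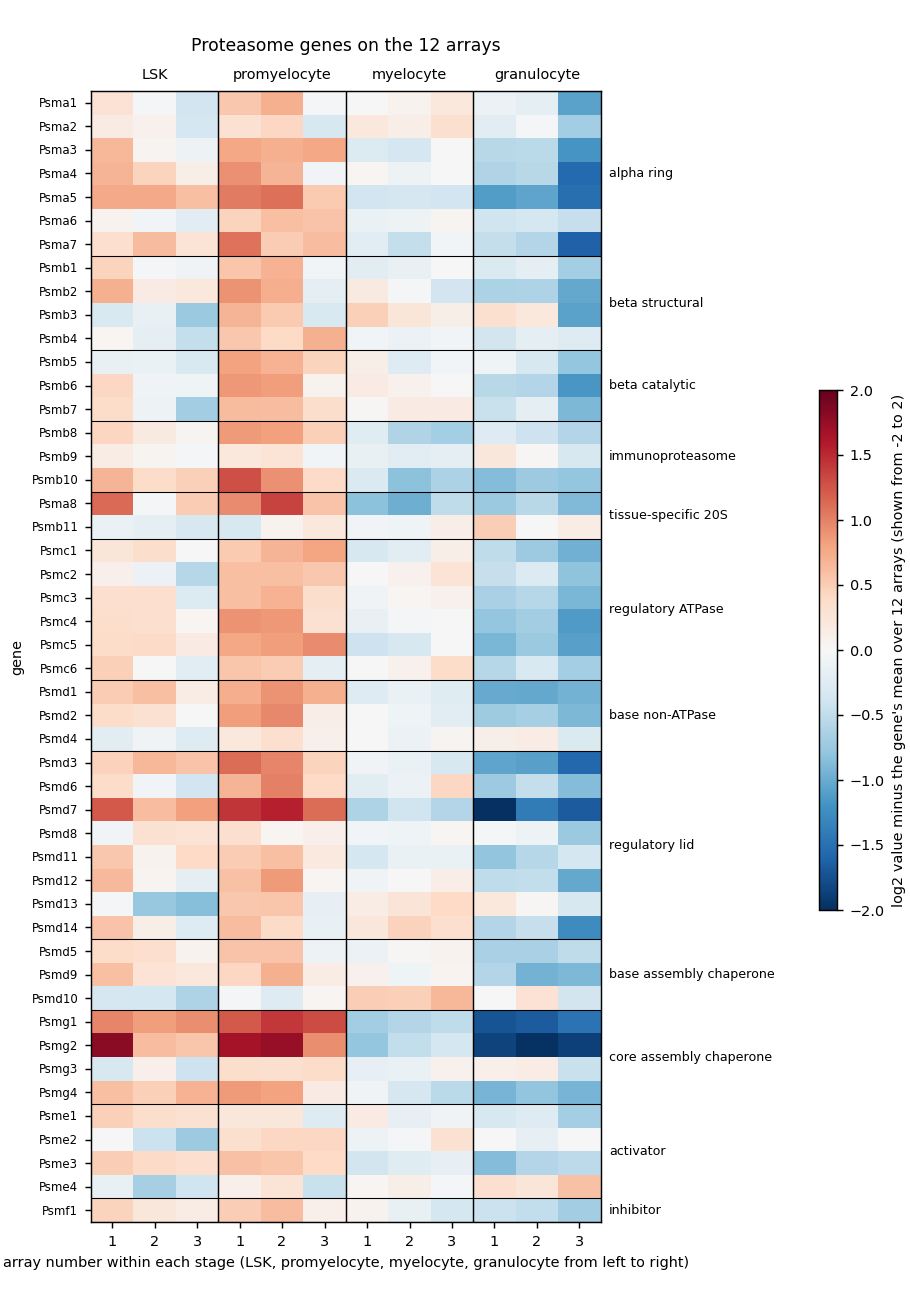
Each row is a proteasome gene, grouped by its role, and each column an array, in stage order with arrays 1 to 3 within a stage. Colour gives the log2 value minus the gene's mean over the 12 arrays, and the promyelocyte columns are red and the granulocyte columns blue for most rows, with Psmd10 and Psme4 among the rows that differ.

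The steps between stages differed in size. From LSK cells to promyelocytes 0 of 48 members were called higher, against 1.61% of all genes, and 0 were called lower, against 2.75%. On the adjusted p alone, with no fold minimum, 9 were higher (against 5.79% of all genes) and 0 lower (against 7.22%), and the median difference was 0.39, against 0.04 over all genes. The 9 were Psma6, Psmb4, Psmb5, Psmc2, Psmc5, Psmd6, Psmd13, Psme2 and Psmg3, and the largest difference among them was that of Psmd13, at 0.85 ± 0.23 (SE, adjusted p = 0.0231). The values of both stages were apart for 17 members, against 26.4% of all genes and 4208 of the 12963 genes with a mean above dim signal. Psmd13 passed the fold as well once LSK array 1 (difference 1.11) or promyelocyte array 3 (1.09) was left out.

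Myelocytes were lower than promyelocytes for 9 of the 48 members, against 9.87% of all genes and 1912 of the 12963 genes with a mean above dim signal. They were higher for 0 members, against 7.61% of all genes. The 9 were the core subunits Psma5 and Psma8, the immunoproteasome subunits Psmb8 and Psmb10, the ATPase Psmc5, the lid subunits Psmd3 and Psmd7 and the chaperones Psmg1 and Psmg2. The median difference over the members was −0.54, against 0.01 over all genes. The values of both stages were apart for 32 members, against 44% of all genes and 7749 of the 12963 genes with a mean above dim signal. Without the arrays numbered 3 the count was 14. Psmd3 came to −0.88 without promyelocyte array 1, −0.95 without promyelocyte array 2 and −0.95 without myelocyte array 3, under the fold. On the adjusted p alone 24 members were lower (against 19.1% of all genes) and 1, Psmd10, was higher (against 15.6%).

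Granulocytes were lower than myelocytes for 5 members, Psmd3, Psmd7, Psmd14, Psmg1 and Psmg2. Of all genes 5.96% were called lower, and of the 12963 genes with a mean above dim signal 1173. Granulocytes were higher for 0 members, against 2.35% of all genes. The median difference was −0.57, against 0.09 over all genes, and 23 members were lower on the adjusted p alone, against 13.9% of all genes, and 0 were higher, against 8.07%. The values of both stages were apart for 34 members, against 44.2% of all genes and 6991 of the 12963 genes with a mean above dim signal. The count of 5 depended on granulocyte array 3, since 3 were called without it, when the differences of Psmd3 and Psmd14 were −0.89 and −0.87. It was also 3 without the 4 arrays numbered 3. Psmg1 came to −0.98 without granulocyte array 1 and also without myelocyte array 3, under the fold. With arrays centred on the 75th percentile Psmd7 and Psmg2 kept their calls, and Psmd3 (−0.90), Psmd14 (−0.95) and Psmg1 (−0.86) lost theirs.

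Over the whole path from promyelocytes to granulocytes 29 of the 48 members were called lower, and 0 higher. Of all genes 16.3% were called lower and 10.1% higher, and of the 12963 genes with a mean above dim signal 3177 were called lower. The median difference was −1.11, against 0.13 over all genes. The values of the 3 granulocyte arrays all lay below those of the 3 promyelocyte arrays, or all above, for 40 members. This held for 57.2% of all genes and 9285 of the 12963 genes with a mean above dim signal. Without the arrays numbered 3, 28 members were called. With arrays centred on the 75th percentile 21 were called, and Psmb5, Psmb7, Psmb8, Psmc2, Psmd11, Psmd12, Psmd14 and Psme3 fell short of the fold while keeping adjusted p-values of at most 0.00599. On the adjusted p alone 39 were lower, against 24.2% of all genes, and 0 higher, against 25.7%. Against LSK cells, granulocytes were higher for 0 members, against 9.59% of all genes. Granulocytes were lower for 16 members, against 16.5% of all genes and 3148 of the 12963 genes with a mean above dim signal. That count was 17 without the arrays numbered 3. The median difference was −0.85, against 0.17 over all genes. The values of both stages were apart for 34 members, against 62% of all genes and 9365 of the 12963 genes with a mean above dim signal. On the adjusted p alone 32 were lower, against 25.3% of all genes, and 3, Psme4, Psmd10 and Psmb11, were higher, against 26.6%. Without granulocyte array 3 the differences from LSK cells of Psma4, Psma7, Psmb2 and Psmc4 were −0.995, −0.95, −0.99 and −0.98, without LSK array 1 those of Psma8 and Psmb2 were −0.96 and −0.94, and without granulocyte array 1 that of Psme3 was −0.96, all just under the fold. The comparisons with promyelocytes and with LSK cells share the granulocyte arrays.

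**Figure D2:**
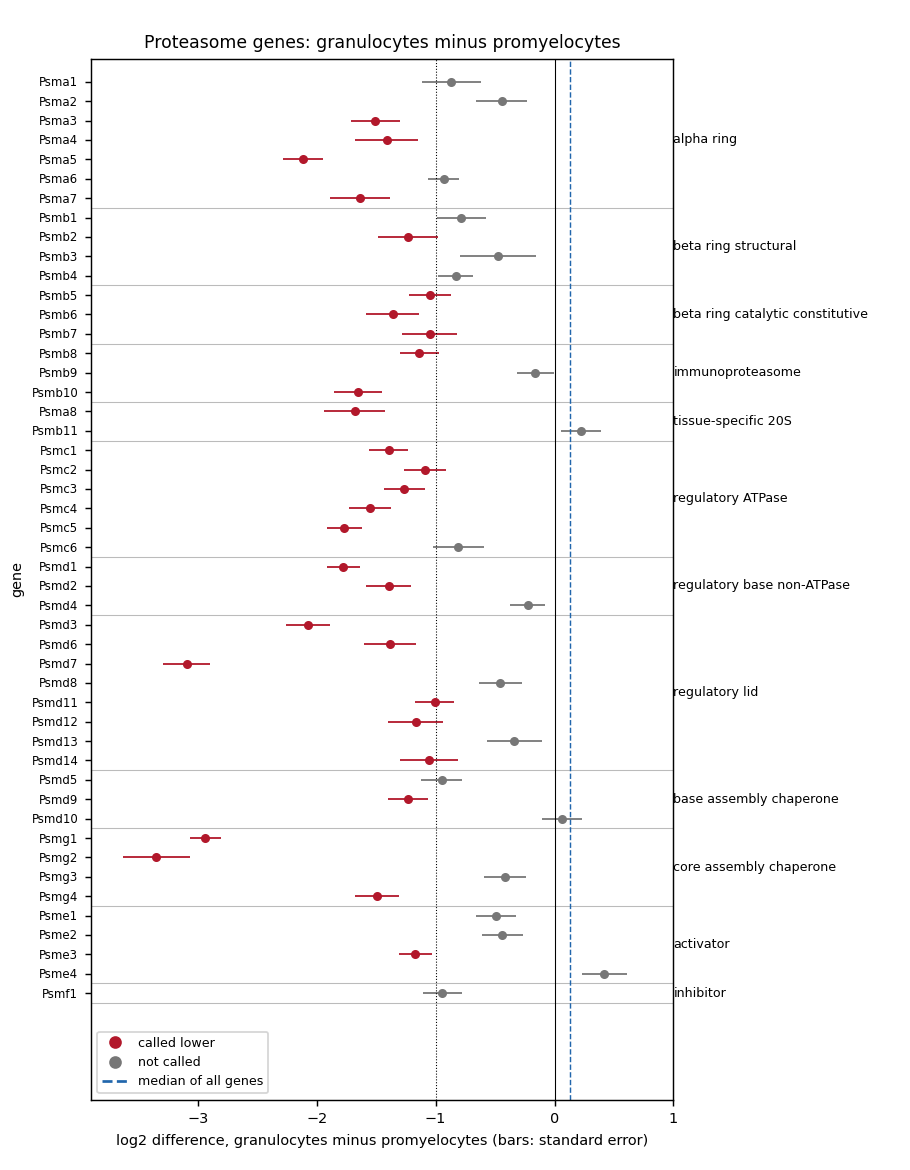
Points give the log2 difference of granulocytes minus promyelocytes for the 48 genes, with standard errors, red where called lower and grey where not called. The dotted line marks a 2-fold decrease and the dashed line the median of all genes, 0.13. Psmd7, Psmg1 and Psmg2 lie farthest to the left, and only Psmb11, Psmd10 and Psme4 lie above 0.

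The alpha ring forms the gate of the core. Of its 7 subunits, 4 were called lower in granulocytes than in promyelocytes, against 16.3% of all genes. All 7 had their lowest mean in granulocytes, as did 5016 of all 19937 genes. Psma5 changed most. It measured 8.43, 8.43 and 8.27 in LSK cells, 8.72, 8.77 and 8.20 in promyelocytes, 7.29, 7.34 and 7.30 in myelocytes and 6.56, 6.62 and 6.17 in granulocytes. The myelocyte arrays lay below all 6 earlier arrays and above all granulocyte arrays. Granulocytes were 4.33-fold lower than promyelocytes (−2.11 ± 0.17, adjusted p = 3.06e-08). Psma3, Psma4 and Psma7 were lower by 1.51, 1.41 and 1.64 on the log2 scale. Psma2 changed least: it measured 8.57, 8.49 and 8.07 in LSK cells, 8.71, 8.83 and 8.08 in promyelocytes, 8.62, 8.54 and 8.73 in myelocytes and 8.19, 8.38 and 7.71 in granulocytes. Its granulocyte and promyelocyte values overlapped (−0.45 ± 0.21, adjusted p = 0.0939). Psma1 (−0.87) and Psma6 (−0.93) passed the adjusted p but not the fold.

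Of the 4 beta subunits that do not cut, 1 was called lower in granulocytes than in promyelocytes, a share near the 16.3% of all genes. Psmb2 measured 8.93, 8.38 and 8.42 in LSK cells, 9.11, 8.93 and 8.03 in promyelocytes, 8.39, 8.17 and 7.82 in myelocytes and 7.58, 7.60 and 7.19 in granulocytes. All granulocyte values lay below the rest (−1.23 ± 0.25 against promyelocytes, adjusted p = 0.000651). Psmb3 measured 8.91, 9.08 and 8.48 in LSK cells, 9.90, 9.75 and 8.93 in promyelocytes, 9.70, 9.47 and 9.35 in myelocytes and 9.54, 9.44 and 8.16 in granulocytes. Granulocyte array 3 stood far below the other 2, and no comparison of Psmb3 passed. Psmb1 (−0.78) and Psmb4 (−0.83) passed the adjusted p but not the fold.

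The 3 constitutive catalytic subunits were all called lower in granulocytes than in promyelocytes, against 16.3% of all genes. Psmb5, the chymotrypsin-like subunit, measured 7.53, 7.56 and 7.38 in LSK cells, 8.50, 8.39 and 8.13 in promyelocytes, 7.80, 7.43 and 7.64 in myelocytes and 7.60, 7.36 and 6.91 in granulocytes. Promyelocytes thus stood above every other array, and LSK cells and granulocytes overlapped. Psmb5 was lower in granulocytes than in promyelocytes by 1.05 ± 0.18 (adjusted p = 0.000109) and higher in promyelocytes than in LSK cells by 0.85 ± 0.18 (adjusted p = 0.00424, under the fold). Psmb6, the caspase-like subunit, measured 8.90, 8.41 and 8.40 in LSK cells, 9.35, 9.31 and 8.56 in promyelocytes, 8.64, 8.57 and 8.50 in myelocytes and 7.93, 7.89 and 7.32 in granulocytes. Its granulocyte values lay below all others (−1.36 ± 0.22 against promyelocytes, adjusted p = 7.65e-05). Psmb7, the trypsin-like subunit, measured 9.98, 9.52 and 8.92 in LSK cells, 10.25, 10.24 and 9.97 in promyelocytes, 9.65, 9.78 and 9.78 in myelocytes and 9.17, 9.42 and 8.72 in granulocytes. Granulocytes and LSK cells overlapped, and granulocytes lay below myelocytes and promyelocytes (−1.05 ± 0.23 against promyelocytes, adjusted p = 0.00112). Without granulocyte array 3 the differences of Psmb5 and Psmb7 were −0.86 and −0.86, and without promyelocyte array 1 that of Psmb5 was −0.97, under the fold. Centring on the 75th percentile gave −0.82 for Psmb5 and −0.83 for Psmb7, so that Psmb6 alone of the 3 was then called.

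The 3 immunoproteasome subunits did not follow one course. Psmb8, the counterpart of Psmb5, measured 8.77, 8.52 and 8.39 in LSK cells, 9.20, 9.16 and 8.82 in promyelocytes, 8.10, 7.75 and 7.66 in myelocytes and 8.08, 7.93 and 7.76 in granulocytes. It fell at the step to myelocytes by 1.23 ± 0.17 (adjusted p = 2e-05), and granulocytes and myelocytes overlapped, with a difference of 0.09 ± 0.17 (adjusted p = 0.741). Psmb10, the counterpart of Psmb7, measured 8.03, 7.72 and 7.82 in LSK cells, 8.64, 8.26 and 7.74 in promyelocytes, 7.06, 6.53 and 6.71 in myelocytes and 6.48, 6.62 and 6.57 in granulocytes. It also fell at the step to myelocytes, by 1.45 ± 0.20 (adjusted p = 2.85e-05), and differed by −0.21 ± 0.20 between granulocytes and myelocytes (adjusted p = 0.5). Psmb9, the counterpart of Psmb6, measured 9.00, 8.92 and 8.83 in LSK cells, 9.08, 9.13 and 8.81 in promyelocytes, 8.72, 8.65 and 8.68 in myelocytes and 9.09, 8.89 and 8.55 in granulocytes. Granulocytes overlapped with every other stage, the myelocyte values lay below those of both earlier stages (−0.32 ± 0.15 against promyelocytes, adjusted p = 0.127), and the F test of Psmb9 did not pass (adjusted p = 0.296). The difference of granulocytes minus promyelocytes was −0.16 ± 0.15 for Psmb9 (adjusted p = 0.402), −1.14 ± 0.17 for Psmb8 (adjusted p = 2.41e-05) and −1.65 ± 0.20 for Psmb10 (adjusted p = 3.65e-06). With centring on the 75th percentile that of Psmb8 was −0.91, under the fold.

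Each immunoproteasome subunit was set against the subunit whose place it takes by the difference of the 2 log2 values on the same array. Such a difference is no ratio of messages, since the rows bind differently, but its change between stages is one of both genes together. An exact permutation test of F (upper tail) over all 369600 assignments of the 12 arrays to 4 groups was adjusted over the 3 pairs, and the smallest p it can give is 6.49e-05. Psmb9 minus Psmb6 was 0.35 ± 0.21 in LSK cells, −0.07 ± 0.28 in promyelocytes, 0.11 ± 0.06 in myelocytes and 1.13 ± 0.12 in granulocytes (SD, n = 3 each, exact adjusted p = 0.00468). The granulocyte values, 1.17, 1.00 and 1.23, lay above the 9 others, of which 0.50 on LSK array 2 was the highest. Psmb8 minus Psmb5 was 1.07 ± 0.15 in LSK cells, 0.72 ± 0.05 in promyelocytes, 0.21 ± 0.16 in myelocytes and 0.63 ± 0.19 in granulocytes (SD, n = 3 each, exact adjusted p = 0.000974). It was lowest in myelocytes, whose 3 values, 0.29, 0.31 and 0.02, lay below all others, and granulocytes and promyelocytes overlapped. Psmb10 minus Psmb7 was −1.62 ± 0.45 in LSK cells, −1.94 ± 0.31 in promyelocytes, −2.97 ± 0.34 in myelocytes and −2.55 ± 0.35 in granulocytes (SD, n = 3 each, exact adjusted p = 0.00721). Myelocytes lay below promyelocytes without overlap, and granulocytes overlapped with both. Without the arrays numbered 3 the exact p of the Psmb10 pair was 0.0857, over the threshold, while that of both other pairs was 0.00952, the smallest that 2 arrays a stage can give.

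**Figure D3:**
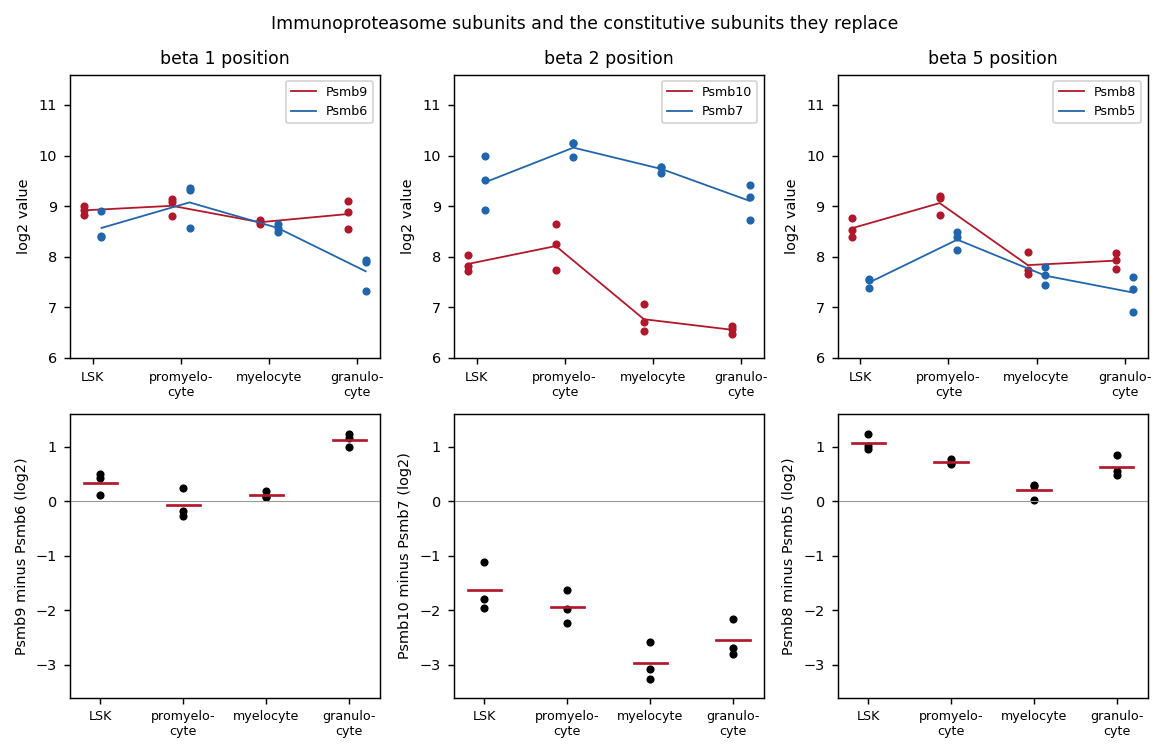
The upper panels plot the log2 values of an immunoproteasome subunit (red) and its constitutive counterpart (blue) on the 12 arrays by stage, with lines through the stage means, and the lower panels the difference of both on each array with the stage mean as a bar. The difference of Psmb9 minus Psmb6 is highest in granulocytes at a mean of 1.13, and Psmb8 and Psmb10 drop between promyelocytes and myelocytes.

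Promoters are shown for 5 genes of the catalytic pairs, since Psmb7 was not matched to a promoter. A relation of the motifs to the changes between stages was not tested. The sequences are the 120 bases before the transcript start of the RefSeq promoter table for mouse build GRCm38.p6, on the strand of the gene. For Psmb6 that start lies inside the annotated gene, so the last 33 bases of its window, the marked match among them, are part of the gene and not upstream of it. Capitals mark a match to 1 of 5 motifs searched on both strands: TGACNNNGC (the core of the antioxidant response element), CCAAT, a form of the interferon-stimulated response element (GAAA, 2 free bases, GAAA), TTCNNNGAA (the form bound by STAT factors) and CACGTG (the E-box). Psmb6 and Psmb5 hold TGACNNNGC, Psmb9 holds CCAAT on the other strand, Psmb10 holds CACGTG and Psmb8 holds TTCNNNGAA.
Psmb6 (chr11:70525237-70525356, plus strand): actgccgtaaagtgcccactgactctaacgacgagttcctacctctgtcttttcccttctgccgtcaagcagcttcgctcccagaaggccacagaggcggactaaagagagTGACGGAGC
Psmb9 (chr17:34187331-34187450, minus strand): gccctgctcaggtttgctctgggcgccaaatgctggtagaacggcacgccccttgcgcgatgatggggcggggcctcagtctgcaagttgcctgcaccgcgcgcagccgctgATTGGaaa
Psmb5 (chr14:54617996-54618115, minus strand): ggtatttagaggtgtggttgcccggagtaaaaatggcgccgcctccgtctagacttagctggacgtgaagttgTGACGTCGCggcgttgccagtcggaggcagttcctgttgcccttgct
Psmb8 (chr17:34198075-34198194, plus strand): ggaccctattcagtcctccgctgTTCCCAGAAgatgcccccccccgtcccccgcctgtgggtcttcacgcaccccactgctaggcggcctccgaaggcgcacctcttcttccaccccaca
Psmb10 (chr8:105938393-105938512, minus strand): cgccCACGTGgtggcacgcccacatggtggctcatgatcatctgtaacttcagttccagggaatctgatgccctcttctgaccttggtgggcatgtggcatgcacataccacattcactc

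RefSeq promoters of 300 bases, 250 before the table's start and 50 after it, were matched for 40 of the 48 members, and Psma8, Psmb1, Psmb2, Psmb7, Psmc3, Psmd3, Psmd7 and Psmg2 were not matched. TGACNNNGC was present in 15% of the matched member genes and in 14% of all genes with a promoter, CCAAT in 35% and 41.1%, TTCNNNGAA in 7.5% and 9.55% and CACGTG in 10% and 8.09%. These shares lay close to each other. The form of the interferon-stimulated response element was present in 12.5% of member genes, which are Psmb3, Psmd4, Psmd9, Psme1 and Psmg4, and in 3.99% of all genes. It was present in 0 of the 3 immunoproteasome genes. CCAAT was present in 5 of the 7 alpha ring genes, Psma1, Psma2, Psma3, Psma6 and Psma7, against 41.1% of all genes. In other classes it was rarer, with 0 of 3 matched core assembly chaperones and 0 of 2 matched constitutive catalytic subunits among them. A match describes letters in the window and is no measured binding site.

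The 6 ATPases of the base unfold the substrate. Of these, 5 were called lower in granulocytes than in promyelocytes, against 16.3% of all genes. All 6 had their highest mean in promyelocytes, against 23.1% of all genes. Their lowest mean lay in granulocytes, as it did for 5016 of all 19937 genes. Psmc5 measured 8.58, 8.59 and 8.38 in LSK cells, 8.99, 9.06 and 9.16 in promyelocytes, 7.81, 7.89 and 8.22 in myelocytes and 7.30, 7.48 and 7.13 in granulocytes. No stage overlapped with another, and granulocytes were lower than promyelocytes by 1.77 ± 0.15 (adjusted p = 5.54e-08). Psmc6 changed least, with 9.20, 8.72 and 8.50 in LSK cells, 9.29, 9.25 and 8.55 in promyelocytes, 8.72, 8.82 and 9.10 in myelocytes and 8.16, 8.43 and 8.06 in granulocytes. Its granulocyte values lay below all others (−0.81 ± 0.22 against promyelocytes, adjusted p = 0.00546, under the fold). Psmc1, Psmc2, Psmc3 and Psmc4 were lower by 1.40, 1.09, 1.26 and 1.56 on the log2 scale, and Psmc2 came to −0.95 without granulocyte array 3, under the fold.

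The other base subunits bind ubiquitin, shuttle factors and the ATPase ring. Psmd1, a large scaffold, measured 9.47, 9.56 and 9.12 in LSK cells, 9.70, 9.86 and 9.68 in promyelocytes, 8.71, 8.83 and 8.71 in myelocytes and 7.95, 7.94 and 8.01 in granulocytes. No stage overlapped with another, and granulocytes were lower than promyelocytes by 1.78 ± 0.14 (adjusted p = 2.82e-08). Psmd4, a receptor for ubiquitin chains, measured 7.84, 7.99 and 7.81 in LSK cells, 8.28, 8.40 and 8.18 in promyelocytes, 8.07, 7.95 and 8.13 in myelocytes and 8.19, 8.22 and 7.77 in granulocytes. It changed least of this group and did not pass the F test (adjusted p = 0.141). Psmd2, which binds shuttle factors, was lower in granulocytes than in promyelocytes by 1.40 ± 0.19 (adjusted p = 1.31e-05).

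Among the 8 lid subunits 6 were called lower in granulocytes than in promyelocytes, against 16.3% of all genes. Psmd7, the partner of the deubiquitinase Psmd14, measured 9.05, 8.44 and 8.65 in LSK cells, 9.26, 9.39 and 8.95 in promyelocytes, 7.21, 7.44 and 7.24 in myelocytes and 5.72, 6.43 and 6.16 in granulocytes. Myelocytes lay apart from the earlier stages and granulocytes below myelocytes, and granulocytes were 8.55-fold lower than promyelocytes (−3.10 ± 0.20, adjusted p = 2.64e-09). Psmd3 followed the same order, with −2.08 ± 0.19 (adjusted p = 1.16e-07). Psmd14 itself, which removes ubiquitin from the substrate, measured 9.62, 9.16 and 8.79 in LSK cells, 9.67, 9.44 and 8.90 in promyelocytes, 9.27, 9.51 and 9.38 in myelocytes and 8.46, 8.58 and 7.80 in granulocytes. Its decrease lay at the step to granulocytes (−1.11 ± 0.24 against myelocytes, adjusted p = 0.0034), where Psmd7 had already fallen at the step to myelocytes. Psmd13 changed least over the whole path, with 7.91, 7.19 and 7.09 in LSK cells, 8.48, 8.49 and 7.78 in promyelocytes, 8.09, 8.19 and 8.35 in myelocytes and 8.15, 7.96 and 7.62 in granulocytes. Granulocytes and promyelocytes overlapped (−0.34 ± 0.23, adjusted p = 0.243). Psmd6, Psmd11 and Psmd12 were lower by 1.38, 1.01 and 1.17 on the log2 scale, and Psmd8 (−0.46) passed the adjusted p but not the fold. Without granulocyte array 3 the differences of Psmd12 and Psmd14 were −0.99 and −0.81, under the fold. So were that of Psmd14 without promyelocyte array 1 (−0.89), that of Psmd12 without promyelocyte array 2 (−0.99) and that of Psmd11 without granulocyte array 1 (−0.90) or promyelocyte array 1 (−0.98) or 2 (−0.92).

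Of the 4 chaperones that build the core, 3 were called lower in granulocytes than in promyelocytes, against 16.3% of all genes. Psmg2 and Psmg1, which act as a pair on the alpha ring, had the largest decreases among the 48 genes together with Psmd7. Psmg1 measured 7.96, 7.83 and 7.92 in LSK cells, 8.22, 8.40 and 8.30 in promyelocytes, 6.30, 6.40 and 6.48 in myelocytes and 5.27, 5.32 and 5.51 in granulocytes. No stage overlapped with another. Psmg1 was lower by 1.91 ± 0.13 in myelocytes than in promyelocytes (adjusted p = 1.32e-08), and granulocytes were 7.66-fold lower than promyelocytes (−2.94 ± 0.13, adjusted p = 5.43e-11). Psmg2 measured 7.99, 6.82 and 6.74 in LSK cells, 7.86, 7.94 and 7.12 in promyelocytes, 5.41, 5.71 and 5.85 in myelocytes and 4.33, 4.21 and 4.32 in granulocytes. Its granulocyte values lay under 4.51, the level of dim signal, so the difference of −3.35 ± 0.28 (adjusted p = 5.85e-08) is one from dim signal. Psmg3 and Psmg4 form the other pair. Psmg3 measured 5.29, 5.70 and 5.18 in LSK cells, 5.95, 5.93 and 5.97 in promyelocytes, 5.44, 5.47 and 5.70 in myelocytes and 5.70, 5.75 and 5.17 in granulocytes. It did not pass the F test (adjusted p = 0.0611), whereas Psmg4 was lower in granulocytes than in promyelocytes by 1.49 ± 0.18 (adjusted p = 3.6e-06). The granulocyte values of Psmg4, 4.66, 4.80 and 4.66, lay just above the dim level of 4.51.

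Of the 3 chaperones of the base, only Psmd9 was called lower in granulocytes than in promyelocytes, against 16.3% of all genes. Psmd9 measured 7.37, 7.05 and 6.98 in LSK cells, 7.19, 7.49 and 6.92 in promyelocytes, 6.86, 6.68 and 6.82 in myelocytes and 6.19, 5.83 and 5.88 in granulocytes. All granulocyte values lay below the others (−1.23 ± 0.17 against promyelocytes, adjusted p = 1.3e-05). Psmd10, known as the oncoprotein gankyrin, measured 7.95, 7.93 and 7.66 in LSK cells, 8.26, 8.03 and 8.32 in promyelocytes, 8.77, 8.77 and 8.94 in myelocytes and 8.29, 8.58 and 7.92 in granulocytes. Its 3 myelocyte values lay above all others, and the difference was 0.62 ± 0.17 against promyelocytes (adjusted p = 0.00769, under the fold). Psmd5 was at −0.95 ± 0.18 in granulocytes against promyelocytes (adjusted p = 0.000261), under the fold, and at −1.18 without promyelocyte array 3.

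The activators went separate ways. Psme3, the nuclear activator, measured 9.56, 9.46 and 9.41 in LSK cells, 9.65, 9.63 and 9.47 in promyelocytes, 8.71, 8.83 and 8.91 in myelocytes and 8.20, 8.49 and 8.54 in granulocytes. Granulocytes and myelocytes both lay below the earlier stages. Psme3 was the only activator called, at −1.17 ± 0.14 in granulocytes against promyelocytes (adjusted p = 2.16e-06), where 16.3% of all genes were called lower. With centring on the 75th percentile it came to −0.95, under the fold. Psme1, which with Psme2 forms the activator induced by interferon gamma, measured 9.82, 9.70 and 9.65 in LSK cells, 9.58, 9.58 and 9.10 in promyelocytes, 9.52, 9.19 and 9.28 in myelocytes and 9.03, 9.09 and 8.66 in granulocytes. It was highest in LSK cells without overlap and lowest in granulocytes (−0.79 ± 0.17 in granulocytes against LSK cells, adjusted p = 0.000894, under the fold). Its promyelocyte and myelocyte values overlapped, and no single step passed (adjusted p = 0.288, 0.75 and 0.109 in stage order). Its partner Psme2 measured 8.20, 7.76 and 7.47 in LSK cells, 8.51, 8.60 and 8.61 in promyelocytes, 8.10, 8.18 and 8.49 in myelocytes and 8.19, 8.03 and 8.18 in granulocytes. Here LSK cells were lowest, and promyelocytes were higher by 0.76 ± 0.17 (adjusted p = 0.00773, under the fold), where Psme1 differed by −0.30 ± 0.17 (adjusted p = 0.288). The difference between both partners was not tested. A further row, shared by Psme2 and its copy Psme2b, was highest in granulocytes instead, at 8.14, 8.18 and 8.42.

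Psme4, an activator best known from sperm and from DNA repair, was the only member with its stage means in rising order from LSK cells to granulocytes apart from Psmb11, whose level was low. It measured 8.07, 7.54 and 7.82 in LSK cells, 8.31, 8.48 and 7.76 in promyelocytes, 8.24, 8.32 and 8.17 in myelocytes and 8.55, 8.45 and 8.80 in granulocytes. Granulocytes overlapped with promyelocytes but lay above LSK cells and myelocytes, and the difference was 0.79 ± 0.19 against LSK cells (adjusted p = 0.00223, under the fold) and 0.42 ± 0.19 against promyelocytes (adjusted p = 0.0773). With arrays centred on the 75th percentile it was 1.01 against LSK cells, past the fold. The inhibitor Psmf1 measured 7.16, 6.95 and 6.86 in LSK cells, 7.21, 7.34 and 6.82 in promyelocytes, 6.79, 6.56 and 6.36 in myelocytes and 6.29, 6.22 and 6.03 in granulocytes. All granulocyte values lay below the others (−0.94 ± 0.17 against promyelocytes, adjusted p = 0.000166), just under the fold, and the difference was −1.09 without promyelocyte array 3.

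**Figure D4:**
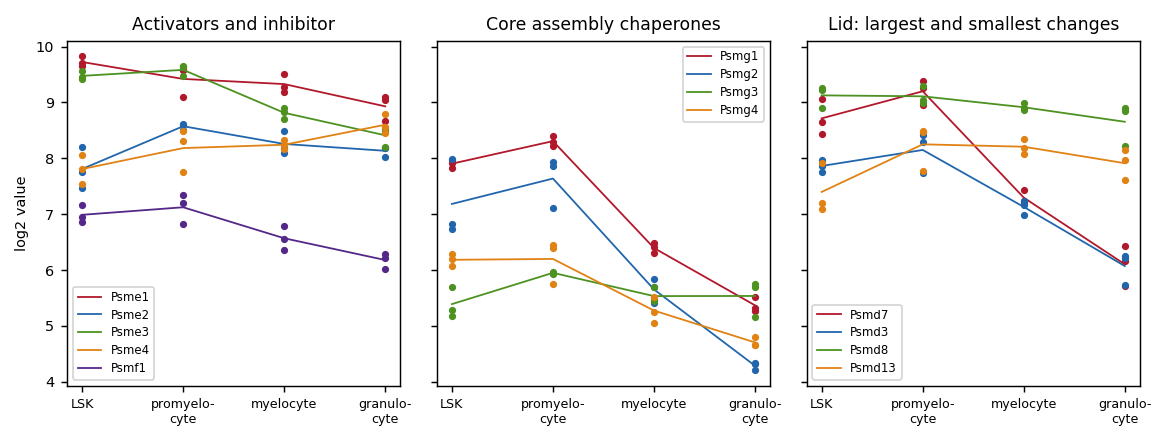
Points are the log2 values of single arrays and lines the stage means, for the activators and the inhibitor (left), the core assembly chaperones (middle) and the 2 lid subunits with the largest and the 2 with the smallest changes (right). Psmg1, Psmg2 and Psmd7 drop at each step after promyelocytes, while Psme4 ends highest in granulocytes at a mean of 8.60.

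The 2 core subunits of other tissues lay near the dim level. Psma8, known from testis, measured 5.64, 4.47 and 5.02 in LSK cells, 5.45, 5.87 and 5.08 in promyelocytes, 3.68, 3.54 and 4.00 in myelocytes and 3.77, 3.95 and 3.63 in granulocytes. Its values in the last 2 stages lay under the dim level of 4.51, so its call as lower (−1.68 ± 0.25 in granulocytes against promyelocytes, adjusted p = 3.75e-05) sets a low level against dim signal. Psmb11, known from the thymus, stayed between 4.55 and 5.38 on all arrays and did not pass the F test (adjusted p = 0.191). Of the 2 genes that match by name only, Psmc3ip, which acts in recombination, was lower in granulocytes than in promyelocytes by 1.77 ± 0.20 (adjusted p = 1.5e-06), and Psme3ip1 differed by 0.05 ± 0.15 (adjusted p = 0.819).

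For 5 members the arrays hold further rows with that symbol alone. The other rows of Psma3, Psma5, Psmb3, Psmc1 and Psmd2 had their highest and their lowest stage mean in the same stages as the row used. The second row of Psma5, for example, averaged 7.42 in LSK cells, 7.85 in promyelocytes, 6.47 in myelocytes and 5.89 in granulocytes. A row shared by Psme2 and its copy Psme2b did not follow the row used for Psme2. It was highest in granulocytes, and its values are given at the end.

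Of 9 other genes that assemble the proteasome or sit on it, 6 were called lower in granulocytes than in promyelocytes, against 16.3% of all genes, and 0 higher, against 10.1%, and the same shares hold for the lists that follow. Usp14, a deubiquitinase on the base, measured 8.38, 7.74 and 7.64 in LSK cells, 8.56, 8.78 and 8.11 in promyelocytes, 6.65, 6.93 and 6.74 in myelocytes and 4.80, 5.20 and 5.18 in granulocytes. Both later stages lay apart, with −3.43 ± 0.21 in granulocytes against promyelocytes (adjusted p = 1.73e-09), a decrease of the size of those of Psmd7 and Psmg2. Pomp, which matures the core, was lower by 1.09 ± 0.27 (adjusted p = 0.00287), Uchl5 by 1.42, Txnl1 by 1.31, Fbxo7 by 1.28 and Ube3c by 1.17. Sem1, the smallest lid subunit, was higher in the stages after LSK cells, with 8.09, 7.70 and 7.28 in LSK cells, 9.09, 9.24 and 9.47 in promyelocytes, 9.41, 9.24 and 9.78 in myelocytes and 9.74, 9.80 and 9.77 in granulocytes. Its LSK values lay below all others, and granulocytes and promyelocytes were not called apart (0.51 ± 0.19, adjusted p = 0.0418, and 2.08 ± 0.19 in granulocytes against LSK cells, adjusted p = 2e-07). Akirin2 and Ecpas were at −0.26 and −0.59 against promyelocytes and were not called.

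Of 7 genes known to drive or modify proteasome transcription, 0 were called lower and 3 higher in granulocytes than in promyelocytes. Nfe2l1, the factor that raises subunit genes when proteasome activity is short, stayed between 7.92 and 8.35 on all arrays and differed by −0.05 ± 0.14 (adjusted p = 0.794). Its relative Nfe2l2 was higher by 1.33 ± 0.16 (adjusted p = 2.36e-06), its partner Mafg by 1.65 ± 0.17 (adjusted p = 7.43e-07) and Ngly1, which processes Nfe2l1, by 1.39 ± 0.14 (adjusted p = 3.73e-07). The 3 subunits of the CCAAT-binding factor, Nfya, Nfyb and Nfyc, were at −0.54, 0.20 and −0.05 and were not called.

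Of 11 genes for ubiquitin and its delivery, 3 were called lower (16.3% of all genes) and 0 higher (10.1%), while on the adjusted p alone 5 were lower and 3 higher. The shuttle factors Rad23b (−1.94 ± 0.16, adjusted p = 3.9e-08) and Ubqln4 (−2.08 ± 0.19, adjusted p = 1.86e-07) and the unfoldase Vcp (−1.29 ± 0.15, adjusted p = 1.96e-06) were the 3, in granulocytes against promyelocytes. Of 10 genes of MHC class I presentation, 4 were called lower and 0 higher. The 4 were Calr (−3.16), Canx (−2.59) and Pdia3 (−1.90), which fold proteins in the endoplasmic reticulum in general, and the peptidase Erap1 (−2.26). The peptide transporters Tap1 (0.16 ± 0.16, adjusted p = 0.437) and Tap2 (0.03 ± 0.18, adjusted p = 0.916) and the light chain B2m (0.54 ± 0.20, adjusted p = 0.0347) were not called, like Psmb9.

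Of 13 genes of interferon signalling, 9 were called higher and 1 lower in granulocytes than in promyelocytes. Irf1, a factor known to switch on Psmb9 and Tap1, measured 8.45, 8.48 and 8.49 in LSK cells, 7.52, 7.81 and 8.06 in promyelocytes, 8.43, 8.41 and 8.17 in myelocytes and 9.17, 9.31 and 9.21 in granulocytes. Granulocytes lay above all others (1.43 ± 0.15 against promyelocytes, adjusted p = 6.09e-07). Irf7 and Oas2 were higher by 3.84 and 4.11, and Irf8, a factor of the monocyte path, was lower (−3.86 ± 0.29, adjusted p = 1.44e-08).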

How the data were processed

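The authors normalized the arrays by justRMA, whose release is not given in the sources used here, and the deposited log2 values were used as they stand. Of 34760 rows, 21640 had 1 symbol in the platform's probe table and were kept, and the brightest row of each of 19937 genes was tested. 0 value columns were without a sample. Means of the 4 stages were fitted to all 12 arrays by limma 3.58.1 (lmFit, eBayes; R 4.3.3), with Benjamini-Hochberg adjustment over all genes. It had 8 residual and 7.02 prior degrees of freedom. Precision is limited by the few arrays, and the median SD within a stage was 0.21. Array medians lay between 4.96 and 5.12. Catalytic pairs were tested by exact permutation in Python 3.11.15 with numpy 2.4.6. Both procedures were tested on simulated data.

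All members are named. Values of every array are given for the immunoproteasome subunits, their counterparts, activators and inhibitor, and in each other class for the members with the largest and smallest change between granulocytes and promyelocytes, and for Psmd14, Psmg1, Usp14, Sem1 and Irf1, chosen after their values were seen. Members and lists were chosen with earlier results of these data known. Promoters and names come from RefSeq tables (GRCm38.p6). Alternatives were other scalings, rows, filters and thresholds, the replicate number as a block, and arrays left out.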

Additional observations from a re-analysis of the deposited data

How the results depend on the processing

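Of 5520 recomputed differences of single genes 0 reversed a call, 51 lost one and 128 gained one, 72 of these with the fold minimum dropped. Without that minimum the counts were 9 higher from LSK cells to promyelocytes, 24 lower and 1 higher in myelocytes against promyelocytes, 23 lower in granulocytes against myelocytes, and 32 lower and 3 higher in granulocytes against LSK cells. Centring arrays on the 75th percentile left 2 lower in granulocytes against myelocytes and 21 against promyelocytes, and made 1 higher against LSK cells, and quantile normalization left 3 lower against myelocytes. That centring moved the median of all genes in granulocytes minus promyelocytes to 0.36, against 0.13, and the share of higher among all genes called in granulocytes minus myelocytes to 41.7%, against 28.3%. Leaving out each array in turn gave 0 to 1 higher in promyelocytes against LSK cells, 9 to 12 lower in myelocytes against promyelocytes, 3 to 6 in granulocytes against myelocytes, 24 to 34 against promyelocytes, 13 to 22 against LSK cells and 39 to 43 passing the F test, and the exact p of the pairs then ran from 0.00591 to 0.0236 for Psmb10 minus Psmb7, from 6.49e-05 to 0.00175 for Psmb8 minus Psmb5 and from 0.000325 to 0.00532 for Psmb9 minus Psmb6. Without the arrays numbered 3 the counts were 14 in myelocytes against promyelocytes and 3 in granulocytes against myelocytes, and the exact p of Psmb10 minus Psmb7 was 0.0857, with 2 arrays a stage. The causes of these changes were not tested. Arrays that share a replicate number did not all deviate together (correlations from −0.25 to 0.25). With the replicate number as a block the members called lower were 0 in promyelocytes against LSK cells, 9 in myelocytes against promyelocytes, and 5, 29 and 16 in granulocytes against myelocytes, promyelocytes and LSK cells. The exact p was then 0.0382 for Psmb10 minus Psmb7, 0.00347 for Psmb8 minus Psmb5 and 0.00521 for Psmb9 minus Psmb6. The block changed none of these counts and no call of a pair, while 42 members passed the F test, against 41 without it. Signal over background limits Psma8, Psmb11 and Psmg2, and the granulocyte values of Psmg4.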

Other observations

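A row that the probe table assigns to both Psme2 and its copy Psme2b, and which was therefore not tested, measured 7.01, 6.44 and 6.80 in LSK cells, 7.47, 7.42 and 7.36 in promyelocytes, 7.86, 7.76 and 7.69 in myelocytes and 8.14, 8.18 and 8.42 in granulocytes. Its values were in rising order of stage without overlap, whereas the row of Psme2 alone was highest in promyelocytes.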
